A study of Arabidopsis thaliana with 10 samples.

Results

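The response of dark-grown Arabidopsis to a block of brassinosteroid synthesis was measured in seedlings that had also received gibberellin. Wild-type seedlings of ecotype Col-0 on 1 µM PAC and 2 µM PPZ were compared with wild-type Col-0 on 1 µM PAC alone, and both groups were given 10 µM GA3. PPZ (propiconazole) inhibits brassinosteroid synthesis, PAC (paclobutrazol) inhibits gibberellin synthesis, and GA3 is an active gibberellin. Seedlings spent 4.5 days in darkness on the inhibitors, then GA3 or mock solution was poured over the plates and drained, and they were kept for another 12 h. The labels name the tissue as hypocotyl, the stem of the seedling. RNA was sequenced from 2 libraries per group, so that the comparison rests on 4 of the 10 libraries of the series. All 33518 gene rows of the deposited tables were joined by locus. The same comparison in mock-treated wild type, which uses 4 other libraries, is given beside it. Every library used here came from plants on PAC, and no group received brassinosteroid to reverse PPZ, so a loss of brassinosteroid and any other action of PPZ cannot be told apart.

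Brassinosteroids are plant steroid hormones made from sterols by a chain of cytochrome P450 enzymes and a steroid reductase. They bind the receptor kinase BRI1 at the cell surface, which leads to inactivation of the kinase BIN2 and lets the transcription factors BZR1 and BES1 act in the nucleus. In darkness brassinosteroid and gibberellin both promote hypocotyl elongation, and BZR1, the PIF factors and the gibberellin-regulated DELLA repressors are known to meet at shared target genes. Brassinosteroid signalling is also known to repress genes of its own synthesis.

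The 4 libraries held between 10823346 and 16729805 reads in genes. Values are normalized reads, which are reads divided by a size factor for the library. In each group the library with more reads is called deeper and its partner shallower, as neither can be matched to a named sample, and values are always given in that order. Genes with means of at least 1000 varied between partners with an SD of 0.121 on the log2 scale without PPZ and 0.091 with PPZ. No pair of libraries agreed within counting noise. The p-values weigh the difference between groups against the spread between partners, with information on that spread shared across genes. Whether partner libraries came from separate plates is not stated in the labels, so that spread may be only technical. Levels are not comparable between genes, because the tables give no gene length. The labelled tissue has no defining marker of its own here, and genes typical of roots, of seeds and of cotyledon plastids were all detected, as given with their values below.

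PPZ changed many genes by small amounts in the presence of GA3. Of 19460 genes tested, limma-voom called 10130 at an adjusted p under 0.05, which is 52.1%. Of these, 5178 were higher with PPZ, or 26.6% of the genes tested, and 4952 were lower, or 25.4%. The median size of a called change was 0.55 on the log2 scale, and 5428 called genes changed by less than 1.5-fold. At 2-fold or more, 1158 genes were higher and 948 lower. At 8-fold or more, 72 were higher and 58 lower. In 10120 of the 10130 called genes both PPZ libraries lay above, or both below, the pair without PPZ. A lack of overlap thus almost follows from the call and is no further support for it where given below. Its share over all genes tested was not counted. A further 14049 gene rows were under the filter of 10 mean normalized reads, 9176 of which had no read in any of the 4 libraries, and 9 had means too high to be resolved into reads. Counts of list members below are for the GA3-treated libraries unless stated, and are to be read against these shares. The lists and their members were chosen with earlier results of these data known. A count above or below a share is therefore not an independent test of a list. Where leaving out 1 library moved a count of at least 3 members by over 1.5 times, the count without it is given beside it.

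**Figure D1:**
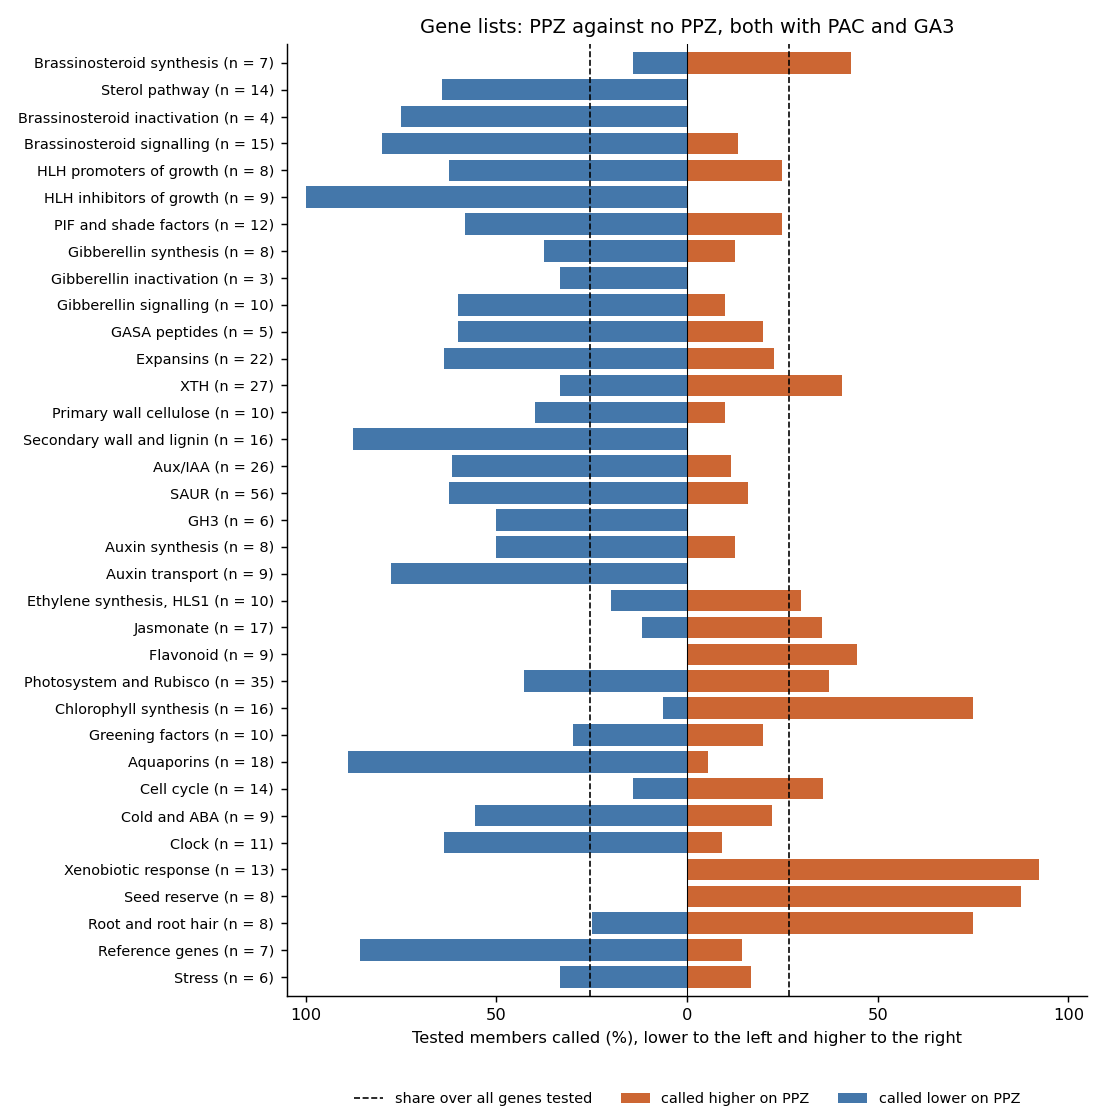
Share of the tested members of each gene list that were called lower (left, blue) or higher (right, orange) with PPZ in the GA3-treated libraries, with the number of tested members in brackets. The dashed lines mark the shares over all genes tested, 25.4% lower and 26.6% higher. All 9 HLH inhibitors of growth were called lower, as were 16 of 18 aquaporins, and 12 of 13 xenobiotic response genes were called higher.

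Genes of brassinosteroid synthesis moved in both directions. Of 7 members, all tested, 3 were called higher, 1 lower and 3 were not called. BR6OX2, the cytochrome P450 that forms brassinolide in the last step, had 1321 and 1173 normalized reads without PPZ and 5102 and 5044 with it. CYP90D1, a hydroxylase of the later pathway, had 102 and 100 without PPZ and 271 and 244 with it, and DWF4, the P450 of an early and rate-limiting hydroxylation, had 1440 and 1283 without PPZ and 2152 and 2201 with it. For each of these 3 genes both PPZ libraries stood above both others. The increases were 4.06-fold for BR6OX2 (log2 change 2.02 ± 0.068, adjusted p = 9.07e-10), 2.54-fold for CYP90D1 (log2 change 1.35 ± 0.13, adjusted p = 4.13e-06) and 1.59-fold for DWF4 (log2 change 0.67 ± 0.069, adjusted p = 6.43e-06), where ± gives the SE of limma-voom. CPD, the P450 that acts next to DWF4 in the pathway, went the other way, with 8254 and 8394 normalized reads without PPZ and 6596 and 6839 with it (log2 change -0.31 ± 0.057, adjusted p = 0.00066). Its call was lost with quantile normalization, at -0.055 (adjusted p = 0.44). ROT3, a close relative of CYP90D1, had 1211 and 1096 without PPZ and 1038 and 1033 with it and was not called (adjusted p = 0.0753). DET2, the steroid reductase, with 191 and 179.9 without PPZ and 235 and 192 with it, and BR6OX1, a relative of BR6OX2, with 313 and 259.9 without PPZ and 278 and 317 with it, were not called either, and in BR6OX1 the groups overlapped.

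The enzymes that inactivate brassinosteroids were lower with PPZ in 3 of the 4 tested of 5 members. BAS1, a P450 that hydroxylates brassinosteroids to inactive forms, had 521 and 506 normalized reads without PPZ and 124 and 129 with it. SOB7, a related P450, had 809 and 701 without PPZ and 262 and 269.9 with it, and BEN1, a reductase-like protein of brassinosteroid inactivation, had 490.5 and 426 without PPZ and 256 and 267 with it. In all 3 both PPZ libraries were below both others, and the decreases were 4.06-fold (log2 change -2.02 ± 0.10, adjusted p = 1.94e-08), 2.86-fold (log2 change -1.51 ± 0.094, adjusted p = 9.64e-08) and 1.77-fold (log2 change -0.82 ± 0.10, adjusted p = 1.89e-05). UGT73C5, which glucosylates brassinosteroids, had 85.03 and 94.6 without PPZ and 129.6 and 99.1 with it and was not called (adjusted p = 0.0861). UGT73C6, its close relative, had at most 1.33 normalized reads in any of the 4 libraries. BAS1 and BR6OX2 thus differed about as far in opposite directions, by -2.02 ± 0.10 and 2.02 ± 0.068 on the log2 scale.

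**Figure D2:**
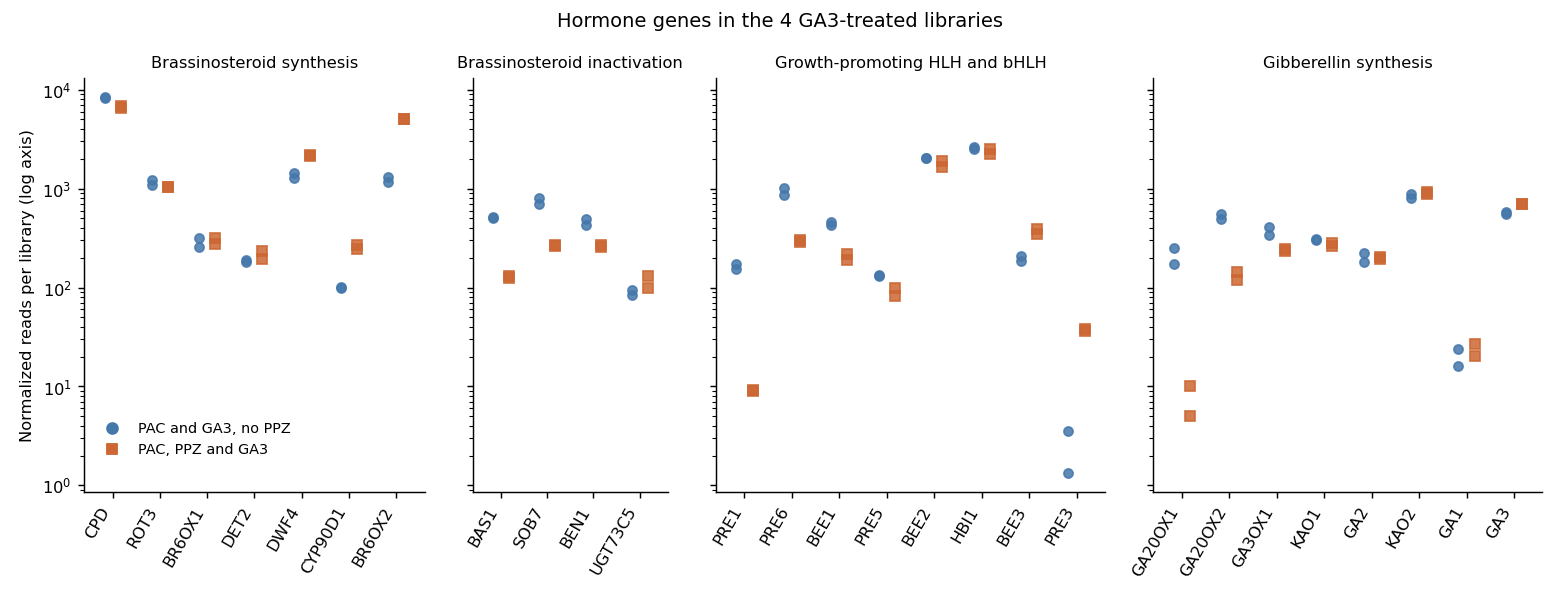
Normalized reads per library on a log axis for the tested members of 4 lists in the GA3-treated libraries. Blue circles are the 2 libraries without PPZ and orange squares the 2 with PPZ. BR6OX2 and PRE3 stood higher with PPZ, while BAS1, SOB7, PRE1, GA20OX1 and GA20OX2 stood lower, with no overlap between the groups.

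The sterol pathway, which supplies the precursors, leaned lower: 9 of 14 members were called lower, none higher, with a median log2 change of -0.39. The 7 genes usually taken as references, given below, had a median of -0.41. Under quantile normalization the medians were -0.29 for the sterol list and -0.098 for the references. SMT3, a sterol methyltransferase of the branch towards phytosterols other than campesterol, had 1934 and 1821 normalized reads without PPZ and 516 and 566 with it. The PPZ libraries held between 516 and 566 normalized reads where the others held 1821 or more, a 3.48-fold decrease (log2 change -1.80 ± 0.073, adjusted p = 2.97e-09). The other called members named here changed less, with SMO2-1, a sterol methyl oxidase, at -0.69 ± 0.078, SMT1, the first sterol methyltransferase, at -0.48 ± 0.061 and CAS1, cycloartenol synthase, at -0.44 ± 0.065 on the log2 scale. CYP51G1, the sterol demethylase of the P450 family that azole compounds bind in fungi, had 2090 and 1968 without PPZ and 2213 and 2150 with it and was not called (adjusted p = 0.182). HYD1, the sterol isomerase, was not called either, at -0.044 ± 0.067. Under quantile normalization 2 members of this list were called higher where none was otherwise.

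Brassinosteroid signalling genes were mostly lower with PPZ: 12 of 15 members were called lower and 2 higher, with a median log2 change of -0.35 (-0.23 under quantile normalization). The decreases were small except in 2 genes. BEH4, a relative of BZR1, had 750.1 and 764 normalized reads without PPZ and 380.4 and 377 with it, a 2-fold decrease (log2 change -0.996 ± 0.075, adjusted p = 4.85e-07). BSU1, a phosphatase that acts upstream of BIN2, had only 18.8 and 40.0 without PPZ and 2.31 and 7.08 with it. From its 51 and 10 reads the decrease was 6.24-fold, with an exact 95% binomial interval of 3.13 to 13.8 for counting error alone. All the PPZ libraries were below the others in both genes. The receptor BRI1 had 5874 and 5220 without PPZ and 4321 and 4264 with it (log2 change -0.37 ± 0.066, adjusted p = 0.000579), a call lost under quantile normalization at -0.14 (adjusted p = 0.0823). BIN2, the kinase that holds BZR1 and BES1 inactive, had 6185 and 6285 without PPZ and 4205 and 4129 with it (log2 change -0.58 ± 0.057, adjusted p = 4.41e-06). BZR1 had 711 and 658 without PPZ and 525 and 514 with it (log2 change -0.40 ± 0.076, adjusted p = 0.000786). The groups did not overlap in these 3 genes either.

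Other signalling members called lower were BSK1, a receptor-associated kinase, at -0.61 ± 0.064, BEH1 at -0.77 ± 0.11 and BEH2 at -0.35 ± 0.06 on the log2 scale. BES1, the closest relative of BZR1, had 1940 and 1710 without PPZ and 1577 and 1521 with it, and its change of -0.24 ± 0.071 was not called without the deeper GA3 library that lacked PPZ (-0.14, adjusted p = 0.146) or without the shallower PPZ library (-0.21, adjusted p = 0.0686). The co-receptor BAK1 at -0.23 ± 0.067, the carboxypeptidase BRS1 at -0.35 ± 0.10 and the receptor inhibitor BKI1 at -0.26 ± 0.10 also lost their calls without single libraries. Without the deeper library lacking PPZ they stood at -0.17 (adjusted p = 0.0927), -0.26 (adjusted p = 0.14) and -0.20 (adjusted p = 0.232). Without the deeper PPZ library they stood at -0.21 (adjusted p = 0.0875), -0.27 (adjusted p = 0.119) and -0.12 (adjusted p = 0.45). BRL3, a BRI1-like receptor of vascular tissue, was the clear exception in direction, with 147 and 181 without PPZ and 288 and 318 with it (log2 change 0.91 ± 0.12, adjusted p = 5.86e-05). BRL1, its relative, had 94.0 and 100 without PPZ and 151 and 119 with it and was called higher at 0.50 ± 0.16, but not without the deeper library lacking PPZ (0.44, adjusted p = 0.132) or the deeper PPZ library (0.31, adjusted p = 0.218). BEH3 had 71.6 and 62.6 without PPZ and 77.2 and 86.9 with it and was not called (adjusted p = 0.239).

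Small helix-loop-helix proteins set elongation by binding one another, and the growth-promoting members diverged. Of 8 members, all tested, 5 were called lower and 2 higher. PRE1, an atypical HLH protein that promotes elongation, had 174 and 153 normalized reads without PPZ and 9.26 and 9.1 with it. From 310 and 21 reads this was an 18.1-fold decrease, with a 95% interval of 11.6 to 29.6. PRE3 had 3.58 and 1.33 without PPZ and 36.3 and 38.4 with it, which from 5 and 85 reads was 13.9-fold higher, with an interval of 5.73 to 43.9. These close relatives moved in opposite directions, and neither gene's groups overlapped. PRE6 had 1007 and 866 without PPZ and 291 and 300.2 with it (log2 change -1.67 ± 0.093, adjusted p = 3.81e-08), and BEE1, a bHLH factor named for its early response to brassinosteroid, had 455 and 424 without PPZ and 191 and 216 with it (log2 change -1.12 ± 0.10, adjusted p = 1.84e-06). BEE3 instead had 209.5 and 184 without PPZ and 351 and 386 with it (log2 change 0.88 ± 0.11, adjusted p = 2.52e-05). PRE5 had 132 and 135 without PPZ and 82.6 and 98.1 with it, and its change of -0.58 ± 0.15 missed the threshold without the deeper PPZ library (-0.44, adjusted p = 0.0758). BEE2 had 2050 and 2058 without PPZ and 1660 and 1891 with it, and its change of -0.21 ± 0.071 was not called without the deeper library lacking PPZ (-0.22, adjusted p = 0.0659) or the deeper PPZ library (-0.12, adjusted p = 0.326). Without that PPZ library 3 members of the list were called lower. HBI1, a bHLH factor of elongation, had 2623 and 2490 without PPZ and 2238 and 2513 with it and was not called (adjusted p = 0.206).

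The HLH proteins that restrain elongation were all lower with PPZ. Each of the 9 members was called lower, with a median log2 change of -1.0, where 25.4% of all genes tested were called lower. IBH1, which binds and blocks HBI1 and BEE proteins, had 796 and 722 normalized reads without PPZ and 423 and 437 with it (log2 change -0.83 ± 0.079, adjusted p = 3.67e-06). PAR2, an HLH protein of the shade response, had 611 and 506 without PPZ and 144 and 171 with it (log2 change -1.85 ± 0.12, adjusted p = 1.94e-07), and its relative PAR1 had 1041 and 1016 without PPZ and 613 and 596 with it. HFR1, which sequesters PIF factors, had 2370 and 2096 without PPZ and 1205 and 1283 with it (log2 change -0.85 ± 0.073, adjusted p = 1.54e-06). AIF3 had 5794 and 5692 without PPZ and 2833 and 2902 with it, and AIF4 had 868 and 738 without PPZ and 423 and 371 with it. In none of these 6 genes did the groups overlap. All 9 members were called lower without GA3 as well, where 12.0% of all genes tested were.

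PIF factors and shade markers were called lower in 7 of 12 members and higher in 3. PIF4, a bHLH factor that drives elongation genes, had 814 and 746 normalized reads without PPZ and 188 and 251 with it, a 3.65-fold decrease (log2 change -1.87 ± 0.12, adjusted p = 9.26e-08). PIF5 had 738 and 688 without PPZ and 367 and 356 with it (log2 change -0.98 ± 0.079, adjusted p = 8.97e-07). Of 5 HD-ZIP factors used as shade markers 4 were called lower, with HAT2 at 1480 and 1333 without PPZ and 389.6 and 396 with it (log2 change -1.84 ± 0.079, adjusted p = 4.55e-09), HAT1 at 953 and 816 without PPZ and 391 and 370 with it and HAT3 at -0.81 ± 0.09 on the log2 scale. The PPZ libraries were below the others in these 5 genes. The remaining HD-ZIP factor, ATHB4, had 277 and 245 without PPZ and 328 and 344 with it and was called higher (log2 change 0.35 ± 0.10, adjusted p = 0.00983), but not without the shallower library lacking PPZ (0.28, adjusted p = 0.0569). PIF6 had 443 and 379.8 without PPZ and 668 and 634 with it and was called higher (log2 change 0.65 ± 0.088, adjusted p = 6.11e-05). PIF1 was not called, at 0.029 ± 0.074, and PIF7 had at most 19.99 normalized reads in any of the 4 libraries.

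Gibberellin synthesis genes, in groups that had both received GA3, were called about as often as all genes tested (52.1%). Of 14 members 8 were tested, 3 of which were called lower and 1 higher, with a median log2 change of -0.084. Single members differed strongly. GA20OX1, an oxidase late in gibberellin synthesis, had 249.7 and 173 normalized reads without PPZ and 10.0 and 5.05 with it. From 409 and 18 reads this was a 27.8-fold decrease, with a 95% interval of 17.37 to 47.4. GA20OX2 had 560.3 and 488 without PPZ and 143 and 120.3 with it (log2 change -1.99 ± 0.12, adjusted p = 8.42e-08), and GA3OX1, which makes the active gibberellins, had 405 and 338 without PPZ and 235 and 245 with it (log2 change -0.65 ± 0.10, adjusted p = 0.000267). The groups did not overlap in these 3 genes. The gene named GA3, ent-kaurene oxidase and the P450 that PAC inhibits, had 557 and 574 without PPZ and 698 and 698 with it (log2 change 0.30 ± 0.072, adjusted p = 0.00358). KAO1, KAO2, GA1 and GA2, which act before the oxidases, were not called, with log2 changes of -0.18 ± 0.094, 0.089 ± 0.073, 0.21 ± 0.32 and 0.016 ± 0.12. GA20OX3 had 13.4 and 10.7 without PPZ and 8.49 and 3.03 with it and was under the filter, as were GA3OX2, with at most 3.998 normalized reads, and GA20OX4, GA20OX5, GA3OX3 and GA3OX4, with at most 1.33. Of 7 oxidases that inactivate gibberellin, 3 were tested and GA2OX6 was called lower, with 343 and 366 without PPZ and 232 and 226 with it, while GA2OX2 and GA2OX4 were not called. GA2OX1 was under the filter, with 13.4 and 12.0 without PPZ and 1.54 and 0 with it. From its 24 and 2 reads it was 14.7-fold lower, with a 95% interval of 3.65 to 128.

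Gibberellin signalling genes were lower in 6 of 10 members and higher in 1. Among the DELLA repressors, RGL1 had 522 and 434 normalized reads without PPZ and 247 and 236 with it (log2 change -0.99 ± 0.10, adjusted p = 8.07e-06), GAI had 1915 and 1698 without PPZ and 1196 and 1241 with it (log2 change -0.57 ± 0.071, adjusted p = 3.33e-05), and RGL3 had 170.1 and 172 without PPZ and 99.5 and 114 with it. The PPZ libraries were the lower ones in all 3. RGA, a main DELLA of hypocotyl growth, was called lower at -0.22 ± 0.065, but was not called without the deeper library lacking PPZ (-0.14, adjusted p = 0.099) or without the shallower PPZ library (-0.19, adjusted p = 0.0892). Leaving out either of these libraries reduced the members called lower from 6 to 3. RGL2, the remaining DELLA, went the other way and was the member called higher, with 85.9 and 103 without PPZ and 132 and 128 with it (log2 change 0.49 ± 0.15, adjusted p = 0.0138). That call was lost without the deeper library lacking PPZ (0.34, adjusted p = 0.164), with all 8 libraries in the fit (0.49, adjusted p = 0.0507) and under quantile normalization (0.37, adjusted p = 0.0519). SCL3, a gibberellin target that counters DELLA action, was not called, with 339 and 345 without PPZ and 322 and 314 with it. Among GASA peptides, small secreted proteins named for regulation by gibberellin, 5 of 7 were tested, and 3 were lower and 1 higher. GASA6 had 7275 and 7651 without PPZ and 1242 and 1433 with it, a 5.6-fold decrease (log2 change -2.48 ± 0.073, adjusted p = 3.58e-10), and GASA14 had 2818 and 2547 without PPZ and 5986 and 5805 with it, a 2.2-fold increase (log2 change 1.14 ± 0.065, adjusted p = 4.78e-08). GASA1 had 12540 and 10340 without PPZ and 6321 and 6353 with it. The groups did not overlap in these 3 peptides.

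Wall-loosening genes were lower as a rule among expansins and split among XTH genes, the xyloglucan endotransglucosylases that cut and rejoin wall polymers. Of 23 expansins 22 were tested, and 14 were called lower and 5 higher, with a median log2 change of -0.64. EXPA8 had 2001 and 1741 normalized reads without PPZ and 245 and 337 with it, a 6.61-fold decrease (log2 change -2.73 ± 0.12, adjusted p = 6.10e-09). EXPB1 had 345 and 349 without PPZ and 92.6 and 91.0 with it (log2 change -1.91 ± 0.12, adjusted p = 9.63e-08) and EXPA16 had 417 and 454 without PPZ and 130.4 and 147 with it (log2 change -1.66 ± 0.11, adjusted p = 1.70e-07). EXPA9 was higher, with 2185 and 2138 without PPZ and 3847 and 3938 with it (log2 change 0.85 ± 0.059, adjusted p = 2.58e-07). EXPA12 was higher by more than any other tested expansin changed, with 1.79 and 1.33 without PPZ and 77.9 and 62.7 with it. From 3 and 163 reads this was 44.4-fold higher, with a 95% interval of 14.9 to 217.5. The groups did not overlap in these 5 genes. Without the deeper library lacking PPZ 3 expansins were called higher in place of 5.

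Of 33 XTH genes 27 were tested, and 11 were called higher and 9 lower, with a median log2 change of 0.039. XTH17 had 3646 and 3167 normalized reads without PPZ and 441 and 528 with it (log2 change -2.83 ± 0.094, adjusted p = 9.07e-10), and XTH30 had 3687 and 3392 without PPZ and 849 and 809 with it (log2 change -2.09 ± 0.068, adjusted p = 8.33e-10). XTH4 had 26750 and 22720 without PPZ and 7922 and 8409 with it, a 3.02-fold decrease. On the other side, XTH32 had 259.6 and 269 without PPZ and 1032 and 983 with it (log2 change 1.93 ± 0.084, adjusted p = 5.36e-09) and XTH9 had 780.5 and 905 without PPZ and 2660 and 2865 with it (log2 change 1.72 ± 0.078, adjusted p = 7.51e-09). Between the same libraries XTH17 was thus 7.09-fold lower and XTH32 3.82-fold higher. A larger fitted increase was that of XTH13, which had 6.27 and 1.33 without PPZ and 16.97 and 21.2 with it. From 8 and 43 reads it was 4.39-fold higher, with a 95% interval of 2.04 to 10.8, and its fitted log2 change of 2.28 ± 0.55 was 3.26 without the deeper and 1.52 without the shallower library lacking PPZ. In these 6 genes the groups did not overlap. The median of the list lay between -0.14 and 0.12 under the other settings. XTH17, XTH18 and XTH19 are closely related copies, and reads that aligned to several places were set aside by the authors, so their values are less certain. XTH19 had 2387 and 2174 without PPZ and 922 and 904 with it and was called lower, while XTH18 had 1351 and 1305 without PPZ and 1180 and 1229 with it and was not called (adjusted p = 0.0796).

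Of 10 genes of primary wall cellulose synthesis 4 were called lower and 1 higher. CESA6, a subunit of the primary wall complex, had 7909 and 7443 without PPZ and 5284 and 5601 with it (log2 change -0.50 ± 0.061, adjusted p = 2.86e-05), and KOR1, an endoglucanase needed for cellulose synthesis, had 15280 and 14280 without PPZ and 9940 and 9582 with it (log2 change -0.60 ± 0.059, adjusted p = 4.83e-06). The member called higher was CESA10, a cellulose synthase of few reads here, with 8.06 and 5.33 without PPZ and 15.4 and 21.2 with it. From 13 and 41 reads it was 2.58-fold higher, with a 95% interval of 1.35 to 5.24, and its call was lost without the shallower library lacking PPZ (1.10, adjusted p = 0.0708) and under quantile normalization (0.88, adjusted p = 0.0933). In these 3 genes the groups did not overlap. Without the deeper PPZ library, and under quantile normalization, 2 members were called lower. Of 16 secondary wall and lignin genes 14 were called lower and none higher, at a median of -0.73. LAC4, a laccase of lignin polymerization, had 585 and 648 normalized reads without PPZ and 234 and 234 with it (log2 change -1.39 ± 0.091, adjusted p = 1.54e-07), and LAC17 had 428 and 376 without PPZ and 180.5 and 163 with it (log2 change -1.23 ± 0.11, adjusted p = 1.88e-06). CESA4 had 695 and 661 without PPZ and 349 and 388 with it and CESA8 had 379.5 and 372 without PPZ and 189.8 and 208 with it, both subunits of the secondary wall complex. PAL1, the entry enzyme of the phenylpropanoid pathway, had 2714 and 2404 without PPZ and 1546 and 1537 with it. The groups did not overlap in these 5 genes. Without GA3, where 12.0% of all genes tested were called lower and 11.6% higher, the list had 3 members called lower and 2 higher. That contrast was not tested for the list as such. The difference between the PPZ effects with and without GA3, tested gene by gene, was called in 3 of the 16 members, each more negative with GA3.

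Aquaporins, the water channels of the plasma membrane and vacuole, were lower with PPZ almost throughout. Of 19 members 18 were tested, and 16 were called lower and 1 higher, with a median log2 change of -1.24. PIP2;7 had 42210 and 35650 normalized reads without PPZ and 9712 and 9572 with it (log2 change -2.01 ± 0.074, adjusted p = 1.56e-09). PIP1;3 had 26560 and 21330 without PPZ and 5157 and 5021 with it (log2 change -2.23 ± 0.086, adjusted p = 2.16e-09), and TIP2;1, a channel of the vacuole membrane, had 34910 and 24930 without PPZ and 7766 and 7402 with it (log2 change -1.96 ± 0.12, adjusted p = 6.10e-08). PIP2;4 had 2481 and 1926 without PPZ and 416 and 408 with it, a 5.32-fold decrease. In each of these genes the PPZ libraries agreed closely with each other and lay well below the others, and 13 of the 18 tested aquaporins were at least 2-fold lower. PIP2;5 had 107 and 111 without PPZ and 137 and 121 with it and was not called (adjusted p = 0.142). The vacuolar TIP1;2 was among the 9 genes that could not be resolved into reads, and its rescaled ratio of deposited means was 0.501, with no test.

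Auxin-responsive genes were lower in large part. Of 28 Aux/IAA genes, which encode repressors that auxin itself induces, 26 were tested, and 16 were called lower and 3 higher, with a median log2 change of -0.57. IAA19 had 2158 and 1787 normalized reads without PPZ and 201 and 214 with it, a 9.52-fold decrease (log2 change -3.25 ± 0.11, adjusted p = 1.01e-09). IAA3 had 2265 and 2056 without PPZ and 585 and 665 with it (log2 change -1.80 ± 0.08, adjusted p = 6.01e-09), and IAA17 had 3606 and 3211 without PPZ and 1238 and 1337 with it (log2 change -1.41 ± 0.073, adjusted p = 2.07e-08). IAA6 had 308 and 223 without PPZ and 1.54 and 6.07 with it, which from 511 and 8 reads was a 78.2-fold decrease, with a 95% interval of 39.4 to 182. The groups were far apart in each of these genes. IAA20 and IAA18 were not called, at -0.21 ± 0.11 and -0.083 ± 0.076.

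The SAUR genes, small auxin-induced RNAs that promote cell expansion, were lower in most tested members, with a median of -1.16 on the log2 scale. Of 77 members 56 were tested, and 35 were called lower, 29 of them by at least 2-fold, and 9 higher. SAUR16 had 414 and 445 normalized reads without PPZ and 28.6 and 22.2 with it (log2 change -4.04 ± 0.21, adjusted p = 1.94e-08), and SAUR50 had 918 and 721 without PPZ and 127 and 148 with it (log2 change -2.60 ± 0.14, adjusted p = 3.67e-08). Of the clustered genes SAUR19, SAUR20 and SAUR22, SAUR22 had 384 and 353 without PPZ and 78.7 and 73.8 with it. In SAUR19 the reads were 201 and 191 without PPZ and 37.8 and 43.5 with it, and in SAUR20 223 and 185 without PPZ and 26.2 and 30.3 with it. Such tandem copies can share reads that were set aside, so the split between them is uncertain. SAUR36, a gene linked with leaf senescence, had 282 and 219 without PPZ and 232 and 263 with it and was not called (adjusted p = 0.763). At a filter of 50 mean normalized reads 35 SAUR genes were tested, 3 were called higher in place of 9, and the median was -2.59.

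YUC8, a flavin monooxygenase of auxin synthesis, had 704 and 737 normalized reads without PPZ and 295 and 366 with it (log2 change -1.14 ± 0.10, adjusted p = 1.49e-06), and TAA1, the aminotransferase of the preceding step, had 428 and 434 without PPZ and 306 and 289 with it (log2 change -0.53 ± 0.085, adjusted p = 0.000252). In the synthesis list 8 of 10 members were tested, and 4 were called lower and 1 higher. Among 9 transporters 7 were called lower and none higher, at a median of -0.24. AUX1, an influx carrier, had 3964 and 3680 without PPZ and 2869 and 2649 with it (log2 change -0.47 ± 0.066, adjusted p = 8.31e-05), and LAX3 had 2348 and 2350 without PPZ and 1750 and 1802 with it. Quantile normalization left 3 transporters called lower at a median of -0.12, and 4 were called lower without the deeper library lacking PPZ. Of the GH3 enzymes, which conjugate auxin to amino acids, 6 of 7 were tested and 3 were called lower, with GH3.2 at 254 and 223 without PPZ and 85.6 and 77.8 with it (log2 change -1.54 ± 0.14, adjusted p = 2.20e-06).

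**Figure D3:**
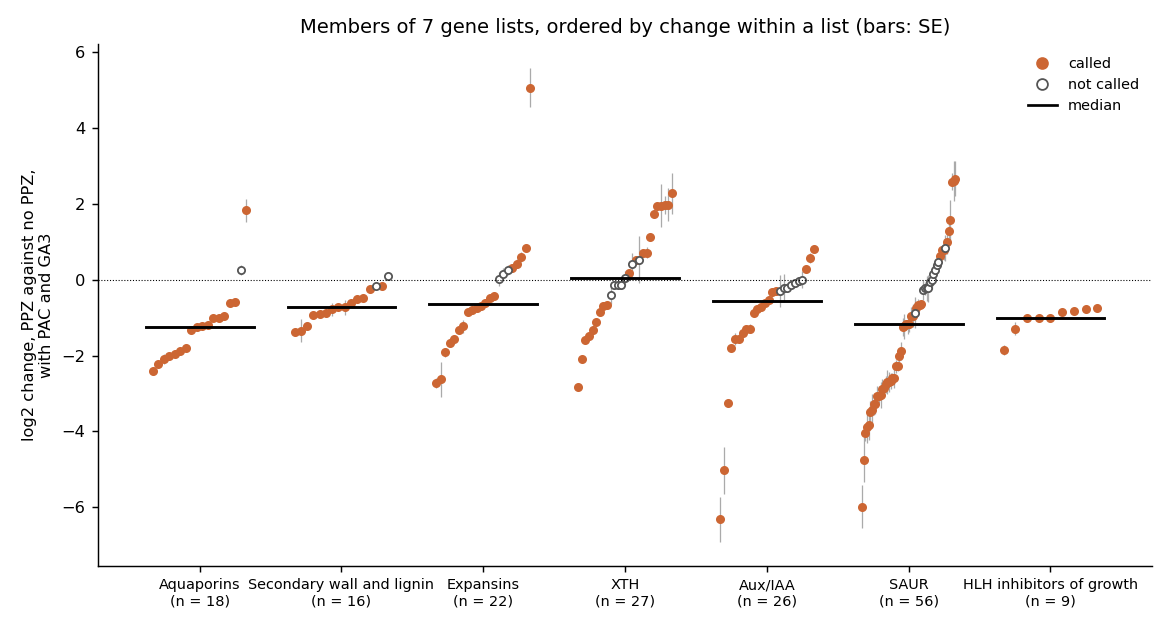
Log2 change with PPZ in the GA3-treated libraries for every tested member of 7 lists, ordered within each list. Points are genes, thin bars the SE of limma-voom, filled points called genes, open points genes not called and thick lines the list medians. Aquaporins, SAUR genes and HLH inhibitors lay mostly below 0, with medians of -1.24, -1.16 and -1.0, while XTH genes lay on both sides of a median of 0.039.

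Ethylene and jasmonate genes moved member by member and were called no more often than the 52.1% over all genes tested. ACS5, an ethylene synthesis enzyme of dark-grown seedlings, had 155 and 164 normalized reads without PPZ and 5.4 and 9.1 with it, which from 296 and 16 reads was a 22.6-fold decrease, with an interval of 13.7 to 40.1. ACS11, from the same enzyme family, had 63.5 and 42.6 without PPZ and 234 and 182 with it, a 3.84-fold increase (log2 change 1.94 ± 0.22, adjusted p = 1.42e-05). Neither gene's groups overlapped. In the ethylene list 10 of 12 members were tested, and 3 were called higher and 2 lower. It held 5 called higher without the shallower PPZ library. Of 19 jasmonate genes 17 were tested, with 6 called higher and 2 lower. The summed normalized reads of this list were 4042 and 3892 without PPZ and 5433 and 3909 with it, so that the deeper PPZ library stood apart from the other 3. The median log2 change was 0.41, and it was -0.025 with 4 called higher without the deeper PPZ library and 0.50 with 8 called higher without the shallower one. Without the shallower library lacking PPZ it was 0.25. VSP1, a vegetative storage protein induced by jasmonate, had 41.2 and 72.0 without PPZ and 259 and 217 with it (log2 change 2.202 ± 0.22, adjusted p = 4.93e-06), and JAZ9, a repressor of the pathway, had 249.7 and 232 without PPZ and 142 and 159 with it (log2 change -0.70 ± 0.11, adjusted p = 0.000269). Of 20 flavonoid genes 9 were tested and 4 called higher, with chalcone synthase, CHS, at 1680 and 1561 without PPZ and 2537 and 2278 with it (log2 change 0.57 ± 0.071, adjusted p = 3.27e-05) and FLS1, flavonol synthase, at 176 and 165 without PPZ and 295 and 274 with it (log2 change 0.73 ± 0.11, adjusted p = 0.000124).

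Plastid genes split by function. Chlorophyll synthesis genes were higher in 12 of the 16 tested of 17 members and lower in 1, with a median log2 change of 0.62. PORA, the dark form of protochlorophyllide reductase, had 5968 and 7070 normalized reads without PPZ and 18850 and 17620 with it, a 2.81-fold increase (log2 change 1.49 ± 0.076, adjusted p = 1.98e-08). CHLI1, a subunit of magnesium chelatase, had 3016 and 3220 without PPZ and 5267 and 5250 with it (log2 change 0.76 ± 0.06, adjusted p = 7.86e-07), and HEMB1, an early enzyme of tetrapyrrole synthesis, had 1632 and 1622 without PPZ and 2805 and 2753 with it (log2 change 0.77 ± 0.06, adjusted p = 6.17e-07). PORB, the other main dark reductase, could not be resolved into reads and had a rescaled ratio of deposited means of 2.30, with no test. By contrast the nuclear genes of light harvesting, photosystems and Rubisco showed no common direction: of 36 members 35 were tested, 13 were called higher and 15 lower, and the median was -0.0049. LHB1B2, a light-harvesting protein, had 12860 and 12640 without PPZ and 2703 and 2672 with it (log2 change -2.25 ± 0.057, adjusted p = 2.65e-10), and its near-identical neighbour LHB1B1 had 4524 and 4111 without PPZ and 1347 and 1301 with it. RBCS1B, a small subunit of Rubisco, had 374 and 396 without PPZ and 1335 and 1140 with it (log2 change 1.69 ± 0.094, adjusted p = 3.79e-08). The groups did not overlap in these genes. Reads shared among the copies of each family were set aside, so their split is uncertain. That split of the list moved with the setting, to 20 higher and 6 lower with a median of 0.19 under quantile normalization, to 7 and 7 with all 8 wild-type libraries in the fit, and to 8 higher without the deeper PPZ library. HY5, a transcription factor of light-dependent growth, had 959.5 and 985 without PPZ and 635 and 643 with it (log2 change -0.60 ± 0.068, adjusted p = 1.36e-05), and GLK1, a factor that promotes plastid genes, had 339 and 353 without PPZ and 502 and 595 with it (log2 change 0.65 ± 0.10, adjusted p = 0.000143).

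Of 11 clock genes 7 were called lower and 1 higher, at a median of -0.72. GI had 957 and 1022 without PPZ and 414 and 401 with it (log2 change -1.27 ± 0.075, adjusted p = 6.46e-08), PRR7 had 946 and 1018 without PPZ and 408 and 429.6 with it (log2 change -1.23 ± 0.077, adjusted p = 1.01e-07), and the evening gene LUX had 1895 and 1958 without PPZ and 944 and 1030 with it (log2 change -0.97 ± 0.067, adjusted p = 2.59e-07). The morning gene CCA1 was higher, with 352 and 338 without PPZ and 548 and 536 with it (log2 change 0.65 ± 0.081, adjusted p = 3.33e-05), while its partner LHY was not called, with 1001 and 1044 without PPZ and 1148 and 1126 with it. Both groups of libraries were taken after the same 12 h, and the labels give no time of day. In the cell cycle list 14 of 15 members were tested, with 5 called higher and 2 lower, and CYCD3;3, a D-type cyclin, had 271 and 255 without PPZ and 498 and 495 with it (log2 change 0.91 ± 0.088, adjusted p = 3.79e-06). Of 13 cold and ABA genes 9 were tested, with 5 lower and 2 higher, and COR47, a dehydrin, had 11650 and 10280 without PPZ and 2944 and 3074 with it (log2 change -1.86 ± 0.069, adjusted p = 1.56e-09), while another dehydrin, LTI30, had 34.0 and 32.0 without PPZ and 129.6 and 115 with it (log2 change 1.88 ± 0.21, adjusted p = 1.21e-05).

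Genes of xenobiotic response, the transferases and reductases that plants induce on exposure to foreign compounds, were higher almost throughout. Of 14 members 13 were tested and 12 were called higher, none lower, with a median log2 change of 0.90, where 26.6% of all genes were called higher. UGT73B4, a glucosyltransferase, had 34.0 and 36.0 normalized reads without PPZ and 189 and 159 with it (log2 change 2.31 ± 0.21, adjusted p = 2.49e-06). OPR1, a reductase, had 140.5 and 159 without PPZ and 439.8 and 336 with it (log2 change 1.39 ± 0.15, adjusted p = 9.82e-06), and the glutathione transferase GSTF6 had 152 and 189 without PPZ and 340.3 and 349 with it (log2 change 1.046 ± 0.12, adjusted p = 1.17e-05). The PPZ libraries were above the others in all 3 genes. Without GA3, 12 of 14 members were called higher, where 11.6% of all genes tested were.

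Markers of other tissues also differed between the groups. Of 9 root and root hair markers 8 were tested, with 6 called higher and 2 lower. LRX1, an extensin of root hairs, had 34.9 and 26.6 normalized reads without PPZ and 104.9 and 130.4 with it (log2 change 1.87 ± 0.24, adjusted p = 3.85e-05), and EXPA7, a root hair expansin, had 2.69 and 2.67 without PPZ and 25.5 and 34.4 with it. PIN2, the auxin carrier of the root, was lower, with 380.4 and 366 without PPZ and 286 and 261 with it, as was RHD2, the oxidase of root hair growth, with 225 and 179 without PPZ and 125 and 106 with it. Summed over the list, the libraries without PPZ held 795 and 720 normalized reads and those with PPZ 942 and 951. No root marker stood at 0 in any of the 4 libraries. In bulk RNA more cells of a type and more RNA per cell cannot be told apart. The part of root tissue in the results above was not tested.

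Seed reserve genes were called higher in 7 of the 8 tested of 10 members, and their sum was 3636 and 3157 normalized reads without PPZ and 10257 and 5966 with it. CRA1, a cruciferin storage protein, had 1939 and 1627 normalized reads without PPZ and 4944 and 3171 with it (log2 change 1.16 ± 0.16, adjusted p = 5.98e-05), and CRU3, another cruciferin, had 1365 and 1202 without PPZ and 4160 and 2293 with it (log2 change 1.27 ± 0.20, adjusted p = 0.000183). Both PPZ libraries lay above the others, but the deeper of them stood well above its partner. Without the deeper library lacking PPZ 4 of these genes were called higher. In libraries without GA3 the same sum was larger in every library, at 15807 and 23294 without PPZ and 39437 and 34521 with it. The deeper PPZ library also stood above its partner in the sum of 7 stress genes. That sum was 1152 and 1104 normalized reads without PPZ and 1574 and 868 with it. Of these genes 6 were tested, with 1 called higher and 2 lower and a median log2 change of -0.029. ZAT12, a stress-induced zinc finger gene, had 25.1 and 17.3 without PPZ and 172 and 46.5 with it, and WRKY40, a defence factor, had 64.5 and 54.6 without PPZ and 306 and 57.6 with it and was not called (adjusted p = 0.13). ZAT12 was called higher but not without either library lacking PPZ (2.44, adjusted p = 0.105, and 1.94, adjusted p = 0.0757). The 7 genes usually taken as references were not steady: 6 were called lower and 1 higher, with ACT2 at 23600 and 22240 without PPZ and 13580 and 14280 with it (log2 change -0.72 ± 0.059, adjusted p = 1.01e-06) and GAPC1 at 5470 and 5284 without PPZ and 8382 and 8194 with it (log2 change 0.62 ± 0.057, adjusted p = 2.54e-06). Their median log2 change was -0.41. Under quantile normalization it was -0.098, and 3 of them were called lower. With the main scaling the medians of the sterol, brassinosteroid signalling, auxin transport and gibberellin signalling lists were thus no lower than that of the reference genes.

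**Figure D4:**
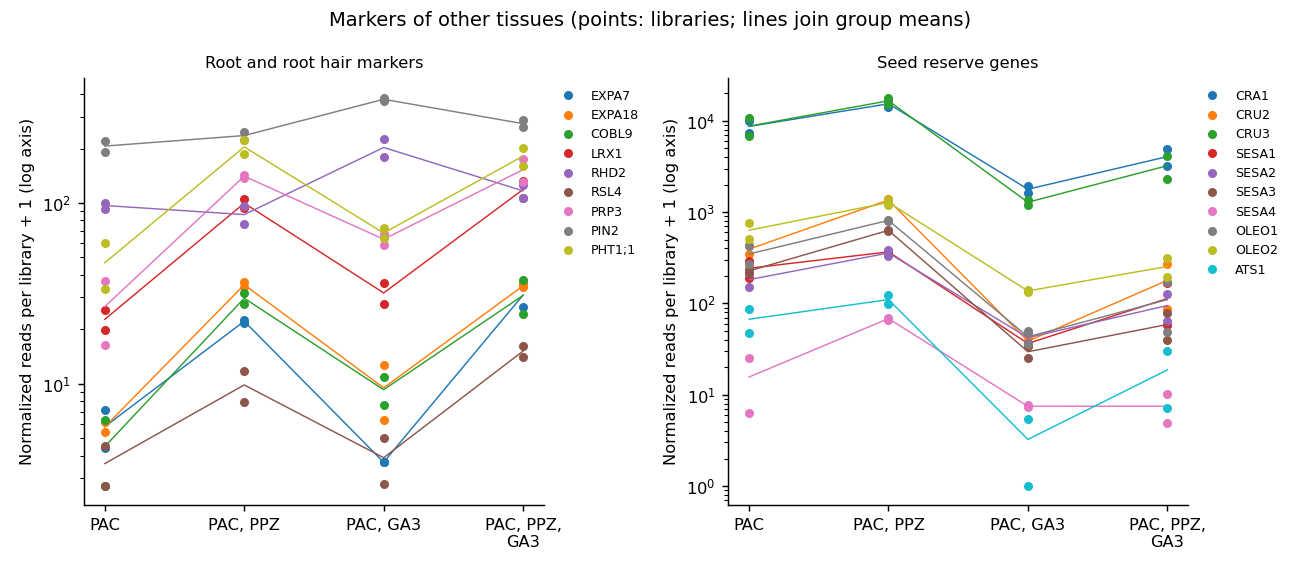
Normalized reads plus 1 per library, on a log axis, for root and root hair markers (left) and seed reserve genes (right) in the 4 wild-type groups. Points are libraries and lines join group means. The root hair markers LRX1 and EXPA7 were higher with PPZ both with and without GA3, while RHD2, also of root hairs, and PIN2 were called lower with PPZ in the libraries with GA3. Seed reserve genes other than SESA4 were lower in all libraries with GA3 than in those without it.

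The 12 largest decreases were taken from called genes with means of at least 50 normalized reads and no overlap between the groups. Several of them left few reads with PPZ. WSD1, a wax ester synthase, had 217 and 207 normalized reads without PPZ and 0 and 0 with it, which is at least 162-fold lower against a floor of 3 reads over the PPZ pair. GPAT3, a glycerol phosphate acyltransferase, had 2557 and 2322 without PPZ and 116 and 75.8 with it (log2 change -4.65 ± 0.15, adjusted p = 9.03e-10). PRP2, a proline-rich wall protein, had 7468 and 6302 without PPZ and 379 and 373 with it, an 18.2-fold decrease (log2 change -4.19 ± 0.092, adjusted p = 1.56e-10). AT4G37220, annotated as a WCOR413 cold acclimation protein, had 2791 and 2304 without PPZ and 86.4 and 92.0 with it (log2 change -4.83 ± 0.15, adjusted p = 6.89e-10). PME61, a pectin methylesterase, had 195 and 176 without PPZ and 2.31 and 5.05 with it, and the hydrolase AT5G41900 had 436 and 389 without PPZ and 10.0 and 17.2 with it. That the PPZ libraries lay below the others in these genes was set by the way they were chosen. UMAMIT4, a transporter of the UMAMIT family, had 309 and 251 without PPZ and 16.97 and 11.1 with it, and the remorin AT3G48940 had 164 and 127 without PPZ and 6.17 and 9.1 with it. IAA6, GA20OX1 and ACS5, described above, were also among the 12 largest decreases. The last of the 12, AT5G34780, had 139.6 and 189 without PPZ and 37.0 and 1.01 with it, so that its PPZ libraries did not agree.

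The 12 largest increases, chosen in the same way, held 2 genes of mannose-binding lectins and 2 of myrosinases. AT1G52070, one of the lectins, had 17.01 and 30.6 normalized reads without PPZ and 468 and 419.5 with it, and AT1G52060, the other, had 7.16 and 9.33 without PPZ and 107 and 85.9 with it. AGP30, an arabinogalactan protein of roots, had 19.7 and 37.3 without PPZ and 458 and 368 with it (log2 change 3.98 ± 0.30, adjusted p = 4.33e-07). BGLU34, a root myrosinase, which releases defence compounds from glucosinolates, had 8.95 and 6.66 without PPZ and 94.9 and 93 with it, and BGLU35, its relative, had 8.95 and 6.66 without PPZ and 98.8 and 94.0 with it. NSP4, a protein that directs those products towards nitriles, had 19.7 and 41.3 without PPZ and 422 and 202 with it (log2 change 3.47 ± 0.56, adjusted p = 0.000253). The lectin pair and the myrosinase pair are close copies, so the split of reads between them is uncertain. That all of these were higher in both PPZ libraries was again set by the way they were chosen. A chitinase family gene, AT2G43610, had 15.2 and 26.6 without PPZ and 410.5 and 355 with it (log2 change 4.28 ± 0.28, adjusted p = 1.70e-07), AT1G74150, with kelch repeats, had 17.01 and 16.0 without PPZ and 276 and 239.6 with it, and AT1G64590, a Rossmann-fold protein, had 8.06 and 16.0 without PPZ and 195 and 202 with it. AT5G54370, annotated as LEA-like, had 9.85 and 19.99 without PPZ and 209 and 189 with it, and AT4G26390, a pyruvate kinase family gene, had 8.95 and 8 without PPZ and 111 and 121 with it. The one with the largest fitted change, AT5G26300, had 22.4 and 0 without PPZ and 136 and 78.8 with it, and its change was not called with all 8 libraries in the fit (4.59, adjusted p = 0.0897). Of the 8 tested root and root hair markers 6 were called higher and 2 lower in the same libraries, as given above, and their part in these increases was not tested.

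The same PPZ comparison without GA3, in mock-treated wild type on PAC, called 4592 of 19452 genes, or 23.6%, with 2252 higher (11.6%) and 2340 lower (12.0%). The mock libraries without PPZ were the most variable pair, with an SD of 0.245 on the log2 scale for genes with means of at least 1000 and 16634475 and 8138068 reads, so the counts of calls are not a measure of which effect is larger. The comparisons share no library. Over 19172 genes tested in both, the log2 changes correlated with r = 0.814 and rho = 0.763, across genes that share the depth of their libraries. Genes called in both numbered 3976, which is 39.7% of the 10015 called with GA3 and 88.3% of the 4505 called without it, and 3940 of them had the same direction. Of 1996 genes called at 2-fold or more with GA3, 1918 had the same sign without it. The median change of the 1996 genes was 1.46 with GA3 and 1.18 without it on the log2 scale in the direction of the call. They were chosen by their size with GA3, which by itself raises the first median, so these medians do not show which effect is larger.

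**Figure D5:**
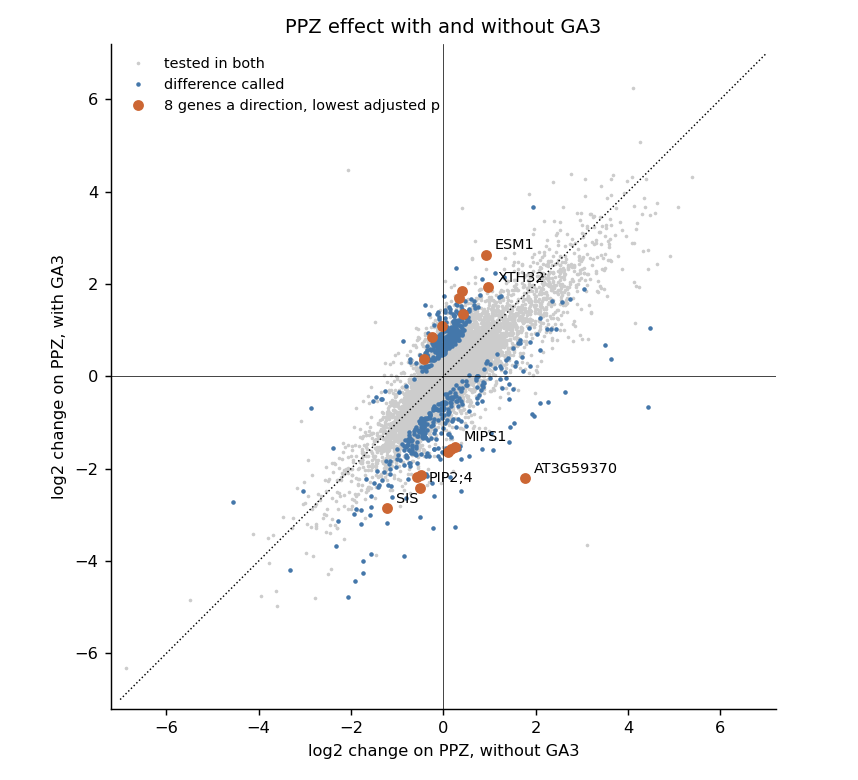
Log2 change with PPZ in mock-treated (horizontal) and GA3-treated (vertical) wild type, 1 point per gene tested in both. Blue points are genes whose changes differed by the interaction test, orange points the 8 in each direction with the lowest adjusted p, and the dotted line marks equal changes. Most genes lie along the line, and AT3G59370 lies in the quadrant of opposite signs.

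BR6OX2, BAS1 and PRE6 changed in the same direction without GA3. In mock libraries BR6OX2 had 1469 and 1913 without PPZ and 5499 and 5403 with it, BAS1 830.4 and 1001 without PPZ and 278 and 285 with it, and PRE6 666 and 889.6 without PPZ and 222 and 241 with it. IAA19 had 296 and 432 without PPZ and 44.8 and 57.8 with it in mock libraries, below its level with GA3 in both states. GA20OX2 had 2825 and 4331 without PPZ and 1412 and 1510 with it, several times its level with GA3, and its log2 change with PPZ was -1.29 ± 0.17. PRE1 had 2.63 and 5.14 without PPZ and 0.829 and 0 with it, too few reads for a test, while with GA3 its level without PPZ was 153 or more.

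A test of the difference between the PPZ effects with and without GA3 called 652 of 19507 genes, or 3.34%. The effect with GA3 was the higher, meaning more positive, in 334 genes (1.71%) and the lower in 318 (1.63%). The count depended on single libraries: it was 54 without the deeper library with GA3 and no PPZ and 2745 without the shallower mock library without PPZ. It was 986 without the deeper mock library, 287 without the shallower GA3 library, 121 and 73 without the deeper or shallower mock library with PPZ, and 165 and 216 without the deeper or shallower library with PPZ and GA3. Of 472 tested list members 40 were called, 17 higher and 23 lower, and 4 of them, XTH32, XTH16, PIP2;4 and EXPA14, kept the call under each of the 12 settings tried.

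PIP2;4, the aquaporin, had 2481 and 1926 without PPZ and 416 and 408 with it in libraries with GA3 and 608 and 665 without PPZ and 420.2 and 474 with it in mock, so that the PPZ libraries were near one level in both and the difference lay in the libraries without PPZ. The changes differed by -1.90 ± 0.17 on the log2 scale (adjusted p = 0.00105). EXPA14, an expansin, had 144 and 123 without PPZ and 59.4 and 54.6 with it with GA3 and 36.0 and 54.9 without PPZ and 77.9 and 94.9 with it in mock, lower with PPZ in the first and higher in the second (difference -2.26 ± 0.30, adjusted p = 0.00439). XTH16 had 1133 and 1122 without PPZ and 2461 and 2490 with it with GA3 and 421 and 555 without PPZ and 464 and 472 with it in mock (difference 1.15 ± 0.15, adjusted p = 0.00398). XTH32 rose with PPZ in both, by 1.93 ± 0.084 with GA3 and 0.97 ± 0.092 in mock (difference 0.96 ± 0.11, adjusted p = 0.00254). MIPS1, an inositol phosphate synthase, had 1275 and 1069 without PPZ and 426 and 389 with it with GA3 and 279.7 and 303 without PPZ and 319 and 371 with it in mock (difference -1.77 ± 0.17, adjusted p = 0.00109). AT3G59370, annotated as a vacuolar calcium-binding protein, had 233 and 208 without PPZ and 45.5 and 50.5 with it with GA3 and 9.65 and 12 without PPZ and 33.1 and 42.3 with it in mock, opposite directions (difference -3.98 ± 0.38, adjusted p = 0.00109). SIS had 5445 and 5911 without PPZ and 765 and 801 with it with GA3 and 1247 and 959.9 without PPZ and 489.8 and 452 with it in mock, a decrease in both (difference -1.63 ± 0.16, adjusted p = 0.00137). ESM1, which directs glucosinolate breakdown away from nitriles, had 106 and 105.3 without PPZ and 659.7 and 657 with it with GA3 and 1221 and 1382 without PPZ and 2515 and 2397 with it in mock (difference 1.71 ± 0.15, adjusted p = 0.00105). FTSH12, a gene of a plastid protease family, had 501 and 544 without PPZ and 1337 and 1324 with it with GA3 and 1556 and 1423 without PPZ and 2004 and 1970 with it in mock (difference 0.94 ± 0.11, adjusted p = 0.00254).

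The 9 genes whose reads could not be resolved have high means and no test. Relative to the median ratio of all genes, the deposited means with PPZ stood at 0.496 of those without it for the carbonic anhydrase CA2, 0.501 for the aquaporin TIP1;2 and 0.661 for the catalase CAT3. They stood at 0.933 for CAB1, a light-harvesting protein, 0.973 for RBCS1A, a small subunit of Rubisco, 1.01 for HOG1, an enzyme of the methyl cycle, and 1.06 for the myrosinase-like PYK10. They were highest, at 1.55, for the chaperone HSC70-1 and, at 2.30, for PORB.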

How the data were processed

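RNA of wild-type hypocotyls was sequenced from 4 groups of 2 libraries used here. Alignment with TopHat and testing with DESeq are named in the submitters' processing notes. Versions, genome build, counter and strandedness: not given in the sources used here. Per the file headers, the signal deposited by the authors is the mean over a group of counts scaled by DESeq size factors. Such a mean adds i steps of one library to j steps of the other, and solving for i and j gave the whole reads of both for 99.97 to 99.99% of genes above 0. Where several solutions fitted, one was kept only if it alone had partners within 2-fold of each other. This recovery was tested on simulated means, with no wrong gene. The simulated partners shared a mean and differed little, so errors of that rule for partners far apart were not tested. The 5 rows that name no gene were left out (reads not uniquely aligned 9.26 to 10.7%, outside genes 1.47 to 1.58%, ambiguous 1.34 to 1.36% of a group). The recovered reads of the 8 libraries were rescaled together by median ratios, since the tables were scaled separately, and the median ratio of the deposited means was 1.039 over 22724 genes.

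Genes with a mean of at least 10 were tested with limma-voom (limma 3.58.1, R 4.3.3), with Benjamini-Hochberg adjustment over all genes tested and calls at an adjusted p under 0.05. The fit held the 4 libraries compared, and the difference of effects was fitted over 8. The comparison without GA3 had its own fit. In a simulation 100 genes were set 2-fold and 100 others 4-fold apart, balanced in direction. The fit recovered 77% and 96% with GA3 (6 false calls among the rest of 19460 genes) and 84% and 94% without GA3 (9 among the rest of 19446). For the difference it recovered 68% and 97% (6 among the rest of 19507). Few genes changed there and each took the average spread of genes of like mean, whereas 52.1% were called in the data with GA3. False calls from the scaling, or from spread particular to a gene, were therefore not measured. Where one side had 30 reads or fewer, the fold is given with an exact 95% binomial interval, for counting error only. Symbols came from RefSeq (TAIR10.1), in which 32709 of 33518 identifiers matched, and no coordinates are given.

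The members and the 35 gene lists (540 loci, with 19 of 559 symbols not matched) were chosen with earlier results of these data known. Named genes were the 12 largest changes a direction among called genes with means of at least 50 and no overlap, all measured members of the core hormone lists, up to 6 called and 2 uncalled members of other lists, and 8 genes a direction for the difference. ATHB4, XTH13 and EXPA12 were added after their values were seen. Alternatives were other scalings, filters, limma-trend with a pseudocount of 1 or 10, all 8 libraries in the fit and leaving out each library.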

Additional observations from a re-analysis of the deposited data

Results flagged for a closer look

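The effect of PPZ with GA3 differed from that without GA3, by the limma-voom test of the difference itself, in 652 genes. The 16 values below are differences of log2 changes, with GA3 minus without GA3. Among the genes where the effect was more positive with GA3, ESM1 differed by 1.71, RFC3 by 1.44, and FLN2, a plastid fructokinase-like protein, by 1.36. AT1G58602, a disease resistance protein, differed by 1.14, AT3G18600, a P-loop protein, by 1.11, XTH32 by 0.96, FTSH12 by 0.94 and AZI1, a lipid transfer protein, by 0.81. Among those where it was more negative, AT3G59370 differed by -3.98, PIP2;4 by -1.90, MIPS1 by -1.77 and AT3G05640, a protein phosphatase, by -1.74. AT5G58340, a myb-like factor, differed by -1.72, NAP, a NAC factor of leaf senescence, by -1.64, and SIS and AT2G41190, an amino acid transporter, by -1.63 each. FLN2 and RFC3 were not called without the deeper library with GA3 and no PPZ, at 1.24 and 1.31 (adjusted p = 0.053 each).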

How the results depend on the processing

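The number of genes called with GA3 stayed within 1.5 times of 10130 under every alternative run, from 7873 without the deeper library lacking PPZ to 10513 with no filter. For the difference of effects the other scalings, limma-trend and no filter gave 531 to 613 genes, and leaving out each library in turn gave 54 to 2745. Of 3476 values of 292 named genes, 3314 kept direction and call, 107 lost the call, 50 gained one, and 3 turned under quantile normalization: GASA4 to 0.0204 (adjusted p = 0.7696), CESA1 to 0.1712 (adjusted p = 0.0195) and ABCB19 to 0.1478 (adjusted p = 0.0545). By the rescaled ratio of deposited means AT5G26300 stood at 3.21 and AT5G34780 at -3.16. The cause was not tested. Of 648 values of 54 genes named for the difference, 430 kept the call and 218 lost it. At a filter of 50 the root list had 3 members called higher in place of 6. No paired analysis was possible because the recovered libraries carry no replicate name. With 2 libraries a side, depth and spread limit the calls of genes with few reads.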
